A study of Mus musculus with 6 samples.

Results

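The collagens and fibrillar matrix genes of the sorted distal retinal progenitor cells (RPCs) were followed here. The members were all genes whose symbol in the array annotation has the form Col, number, a, number, together with Sparc, Dcn, Lum, Bgn, Postn, Fbn1, Fbn2 and Fbln1. Of these, 49 genes were measured, 42 collagens and 7 others, by 97 of 45037 probe sets, among 18193 genes with a symbol of their own. Fbn1 was named by no probe set with that symbol alone and was not analysed here. Each gene was read from the probe set that was brightest on average across all 6 arrays, and 17 of the 49 genes had no second probe set.

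The mutant RPCs were Pax6 loxP/loxP;α-Cre and the control RPCs Pax6 +/+;α-Cre, both from E12 embryos of the ICR strain background, with 3 arrays in each group. Both groups carry the α-Cre transgene, in which the Pax6 P0 promoter and the α enhancer of the peripheral retina drive Cre together with GFP. In the floxed allele, loxP sites flank the initiator ATG and exons 4 to 6, and the controls have no floxed allele. Eyes were dissociated with papain, the GFP-positive cells were sorted, and each array holds the RNA of 1 pool of sorted cells, described as a biological repeat. P-values below set the difference between the groups against the spread between these pools, which the test estimated with help from all probe sets. In such bulk RNA a change in the share of a cell type and a change in RNA per cell cannot be told apart.

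Collagens are triple helices of 3 α chains, some built from copies of a single chain and others from chains of different genes. The fibrillar types I, III and V form the fibres of connective tissue, in the eye mainly those of sclera, cornea and periocular mesenchyme. Types II, IX and XI form the fine fibrils of cartilage and of the vitreous, and types IV, XV and XVIII belong to basement membranes such as the inner limiting membrane of the retina and Bruch's membrane under the pigment epithelium. Decorin, lumican and biglycan are small leucine-rich proteoglycans that bind fibrils, Sparc binds collagen in the matrix, and fibrillins form microfibrils.

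A probe set was called where the groups differed by at least 1.5-fold with p under 0.05 and, after adjustment by Benjamini and Hochberg, p under 0.10 in limma's moderated test, fitted across all probe sets. Among the 49 genes, 10 were called higher in mutant RPCs (20.4%), against 2.28% of all genes. These were Col14a1, Col6a3, Col25a1, Col17a1, Dcn, Col3a1, Col1a2, Col8a1, Col9a3 and Lum. None of the 49 was called lower, against 0.918% of all genes, and 2 members, Fbn2 and Col23a1, were lower at an unadjusted p under 0.05, where 11.6% of all genes were. At the same unadjusted p, 22 members were higher, against 12.8% of all genes, and 24.4% of all genes passed it in either direction. Without the minimum fold, 16 members were higher at an adjusted p under 0.10 (32.7%), against 7.15% of all genes, and 2 were lower (4.1%), against 5.22%. All 3 mutant arrays lay above all 3 control arrays for 25 members (51.0%), against 17.0% of all genes, and below them for 3 members (6.1%), against 16.4%. The difference was positive for 42 members and negative for 7, with a median log2 fold change of 0.20, against -0.01 over all genes. Of the 97 probe sets, 14 were called higher, against 1.67% of all probe sets, and 0 were called lower, against 0.984%. The mean of 11 members lay below the array median, and none of them was called.

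**Figure D1:**
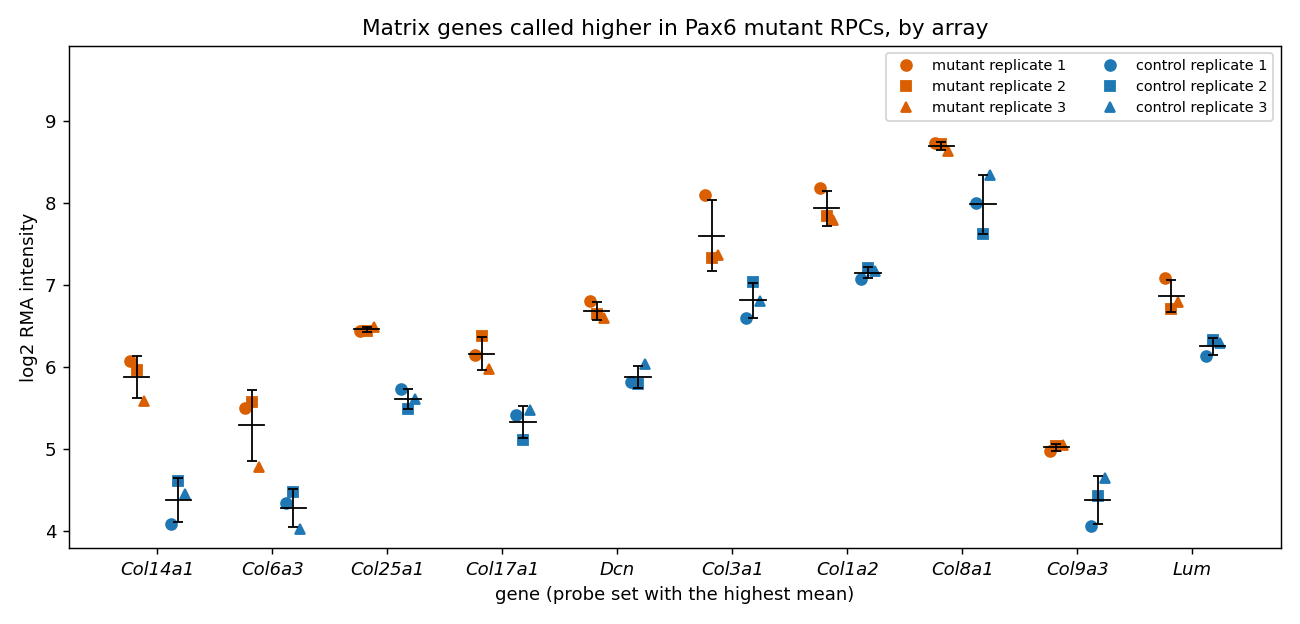
Log2 RMA intensity (vertical axis) of the 10 members called higher, with a symbol for each array (mutant orange, control blue), the group mean as a horizontal line and the SD as a bar (n = 3 each), ordered by the log2 fold change. The groups do not overlap for any of them, and the differences run from 1.49 for Col14a1 to 0.60 for Lum.

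**Figure D2:**
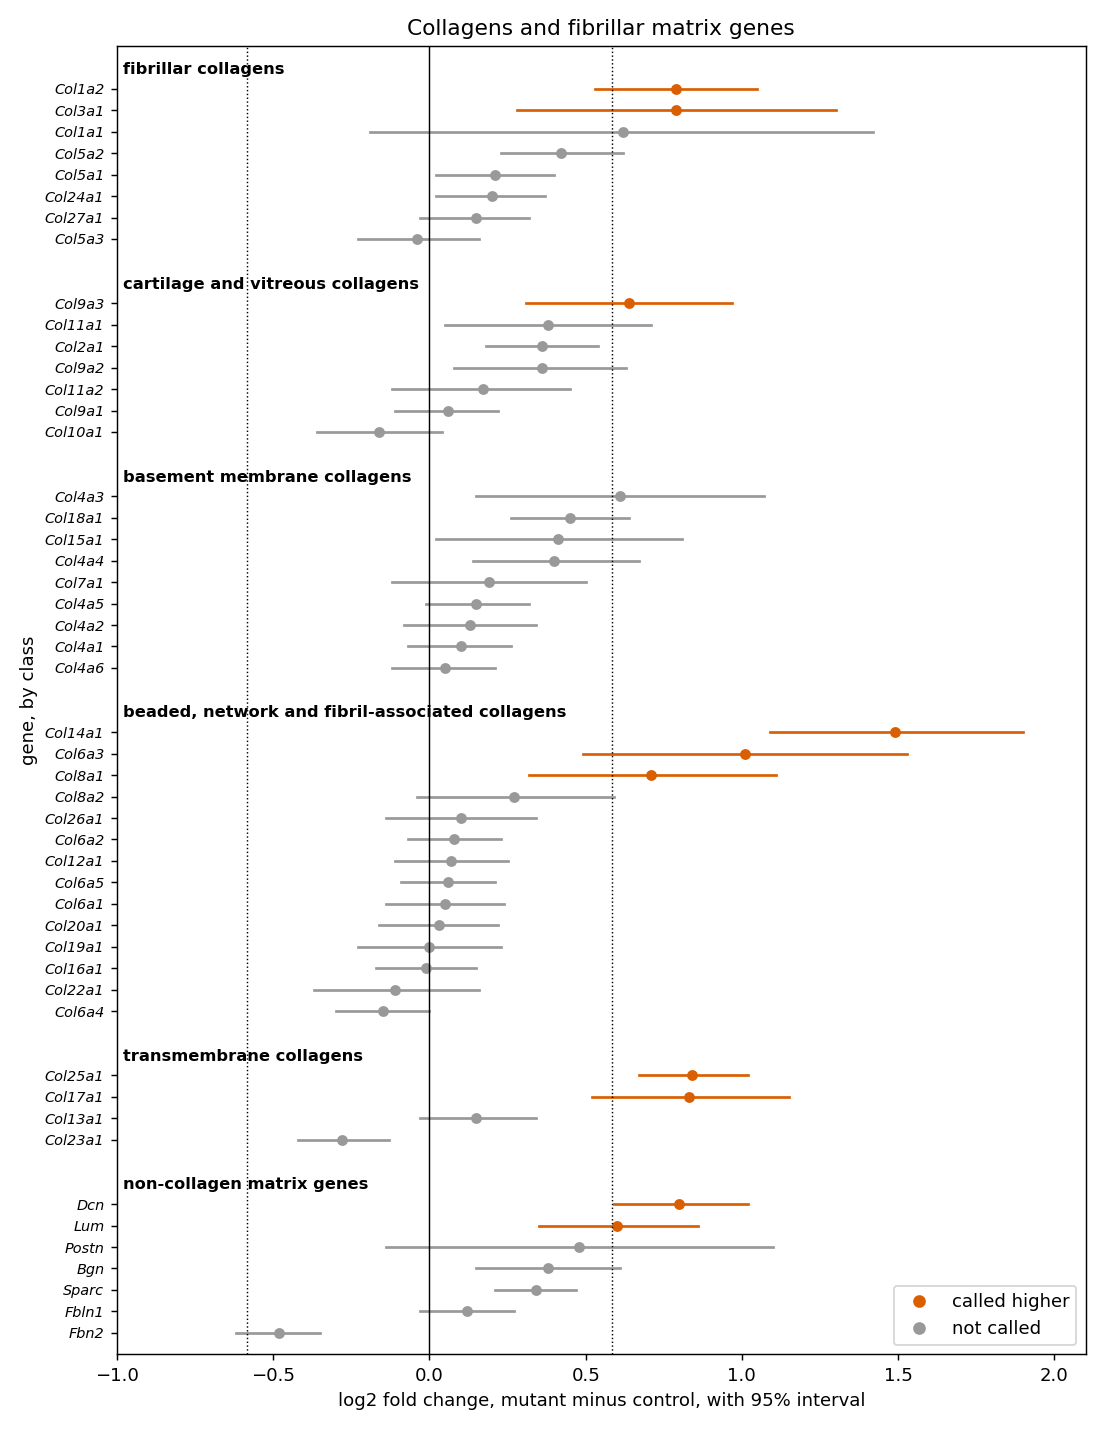
Log2 fold change (mutant minus control, horizontal axis) of all 49 members by class, with the 95% interval of the limma fit as a line and the 1.5-fold limits dotted. Called members are orange, and the 9 basement membrane collagens, all positive and none called, are grey.

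On these arrays Pax6 itself was called lower by 1 of its 5 probe sets, with log2 intensities of 4.79, 4.88 and 4.45 on the mutant arrays and 6.34, 6.44 and 6.14 on the control arrays (-1.60, limma adjusted p = 0.00329). The 4 others had log2 fold changes between -0.22 and 0.10, and which of the 5 lie in the deleted exons was not worked out, so that none of these values can be read as a measure of the deletion. Array medians lay between 12.9 and 13.1 on the intensity scale, and no pair of arrays correlated below 0.9908. The RPC markers were present, but 3 of 9 measured were called lower, Fgf15 (-1.43), Nr2e1 (-1.06) and Sfrp2 (-0.98). The median log2 fold change was -0.38, with 8 differences negative. Six3 (-0.40), Rax (-0.38), Sox2 (-0.19), Lhx2 (-0.12), Six6 (-0.11) and Hes1 (0.06) were not called. Their summed intensity was 4704 to 4885 on the mutant arrays and 7263 to 7647 on the control arrays. Sfrp2 and Fgf15, the brightest of the list on the control arrays, made up most of that drop. The paper reports lower Nr2e1 in the Pax6-mutant retina and, in sections of later stages, raised Six3 and Sox2. The share of RPCs was not tested. Marker lists of other cell types differed in how they moved. The summed intensity of 11 pigment epithelium genes, 7 of them called higher, was 10207 to 10243 on the mutant arrays and 6277 to 7634 on the control arrays. For 11 mesenchyme and neural crest genes, of which 5 lay below the array median and 2 were called (Foxc1 and Tfap2b), the sum was 612 to 676 on the mutant arrays and 432 to 485 on the control arrays. Their median log2 fold change was 0.20, and 3 of the 11 differences were negative. These were Tcf21 (-0.22), Tbx18 (-0.07) and Twist2 (-0.07), all below the array median. The genes above the array median all had positive differences, from 0.12 for Prrx2 to 0.98 for Prrx1. Of 7 mural cell genes 2 were called higher, Pdgfrb (1.64) and Abcc9 (1.33), and 3 had negative differences, among them Notch3 (-0.27), with a sum of 1122 to 1336 on the mutant arrays and 1011 to 1105 on the control arrays. Most of this sum was Acta2, the brightest of the 7, which was not called (0.20). Of 10 lens genes 1 was called, 9 had positive differences and 6 passed an unadjusted p under 0.05, with sums of 2632, 3011 and 3091 on the mutant arrays and 2116, 2328 and 1218 on the control arrays, where control replicate 3 was the lowest. Of 5 measured erythroid genes Hbb-bh1 was called higher (1.00). The others were not called, with Hba-x at 0.48, Alas2 at 0.38 and Hbb-y, the brightest, at 0.07. The probe set of Hba-a1 lay below the array median and had -0.19. Of 9 macrophage genes none was called or passed an unadjusted p under 0.05, though all 9 differences were positive, with a median of 0.16. Some genes of these lists were bright in both groups. Mean log2 intensity on mutant and control arrays was 11.75 and 11.42 for Pmel, 12.59 and 12.52 for Hbb-y and 10.22 and 9.58 for Cryaa. Of the RPC markers, Sfrp2 had 10.68 and 11.66 and Lhx2 9.19 and 9.31. The term RPCs is therefore used here for the sorted pools as labelled. The part of these cells in the results below was not tested.

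The regions just before the annotated starts of 4 called collagens, whose mRNAs were higher on the same arrays, are shown as examples. They are from RefSeq, build GRCm38.p6, 150 bases each, 5′ to 3′ on the strand of the gene. Capitals mark a CCAAT box (CCAAT, or ATTGG for the opposite strand), a TATA box (TATAAA or TTTATA) or a GC box (GGGCGG or CCGCCC). RefSeq windows were matched for 37 of the 49 members and 6 of the 10 called. The called collagens with a window not shown were Col6a3, with no match in its 150 bases, and Col25a1, with GC box matches at 40 and 114 bases.
Col1a2, chr6:4505468-4505617, plus strand: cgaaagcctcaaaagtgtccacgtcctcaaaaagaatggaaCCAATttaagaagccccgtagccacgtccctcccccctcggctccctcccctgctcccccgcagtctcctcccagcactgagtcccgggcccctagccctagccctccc
Col3a1, chr1:45311388-45311537, plus strand: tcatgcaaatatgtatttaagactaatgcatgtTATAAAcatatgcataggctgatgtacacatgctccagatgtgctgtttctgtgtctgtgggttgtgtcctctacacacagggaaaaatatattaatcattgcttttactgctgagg
Col8a1, chr16:57754738-57754887, minus strand: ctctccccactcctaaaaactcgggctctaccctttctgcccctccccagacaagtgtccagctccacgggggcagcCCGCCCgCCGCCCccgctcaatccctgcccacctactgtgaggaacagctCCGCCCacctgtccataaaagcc
Col17a1, chr19:47692043-47692192, minus strand: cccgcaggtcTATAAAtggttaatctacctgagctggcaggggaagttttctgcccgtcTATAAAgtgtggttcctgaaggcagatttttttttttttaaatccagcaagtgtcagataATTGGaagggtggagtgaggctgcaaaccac

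The 4 stretches differed in what they hold. Col1a2 had a CCAAT match that began 109 bases before the start and no TATA or GC box match. Col3a1 had a single TATAAA, 117 bases before the start, Col8a1 had 3 GC box matches on the opposite strand, at 73, 66 and 23 bases, and Col17a1 had TATAAA at 140 and 91 bases and ATTGG at 31 bases. No matches overlapped. In all 32851 RefSeq windows of this length, searched on both strands, 24.5% held a CCAAT box, 7.6% a TATA box and 28.6% a GC box, and these letters describe the sequence without showing a site in use. The stretch of Col3a1 was 37.3% G and C, against 62.7% for Col1a2, 64.7% for Col8a1 and 44.7% for Col17a1.

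Of the 8 fibrillar collagens, 2 were called higher, Col1a2 and Col3a1, and the median log2 fold change of the class was 0.32. Col1a2 encodes the α2 chain of type I collagen, the main fibre protein of skin, bone and sclera. Its log2 intensity was 8.18, 7.84 and 7.79 on the mutant arrays and 7.07, 7.20 and 7.17 on the control arrays. The groups were well apart, with mutant replicate 1 the highest. The log2 fold change was 0.79, or 1.73-fold (SE 0.11, limma adjusted p = 0.0129). A second Col1a2 probe set was also called, with 1.24 (limma adjusted p = 0.00361), while the last, near the bottom of the scale had -0.13.

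Col1a1 encodes the α1 chain that joins the α2 chain in the type I helix, and it did not pass the test. Its values were 6.67, 5.63 and 5.37 on the mutant arrays and 4.90, 5.64 and 5.29 on the control arrays. The groups overlapped, and the high value belonged to mutant replicate 1 alone. The log2 fold change of 0.62 had a 95% interval from -0.19 to 1.42 (limma adjusted p = 0.361), and the second probe set of Col1a1 showed the same array apart, with 4.94, 3.92 and 4.0 on the mutant arrays and 3.69, 4.01 and 3.83 on the control arrays. Whether Col1a1 differed less than Col1a2 was not tested.

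Col3a1, the single chain of the type III collagen of soft and vascular tissue, had 8.10, 7.33 and 7.37 on the mutant arrays and 6.60, 7.03 and 6.80 on the control arrays. The groups did not overlap, but mutant replicate 1 stood well above the others. Its log2 fold change was 0.79 (SE 0.22, limma adjusted p = 0.0916), and the call was lost whichever array was left out, with values between 0.54 and 0.92 and 0.54 without mutant replicate 1 (limma adjusted p = 0.119).

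Col5a2 and Col5a1 encode chains of type V collagen, which starts fibrils of type I. Col5a2 was at 8.37, 8.27 and 8.11 on the mutant arrays and 7.89, 7.79 and 7.79 on the control arrays, with little spread and no overlap. Its log2 fold change of 0.42 (limma adjusted p = 0.0344) was below the minimum fold. Col5a2 is the neighbour of Col3a1 on chromosome 1 in the RefSeq annotation. Col5a1 had 0.21 (95% interval 0.02 to 0.40), and of the remaining chains Col24a1 had 0.20, Col27a1 0.15 and Col5a3 -0.04. Col24a1 and Col5a3 lay below the array median on all arrays.

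**Figure D3:**
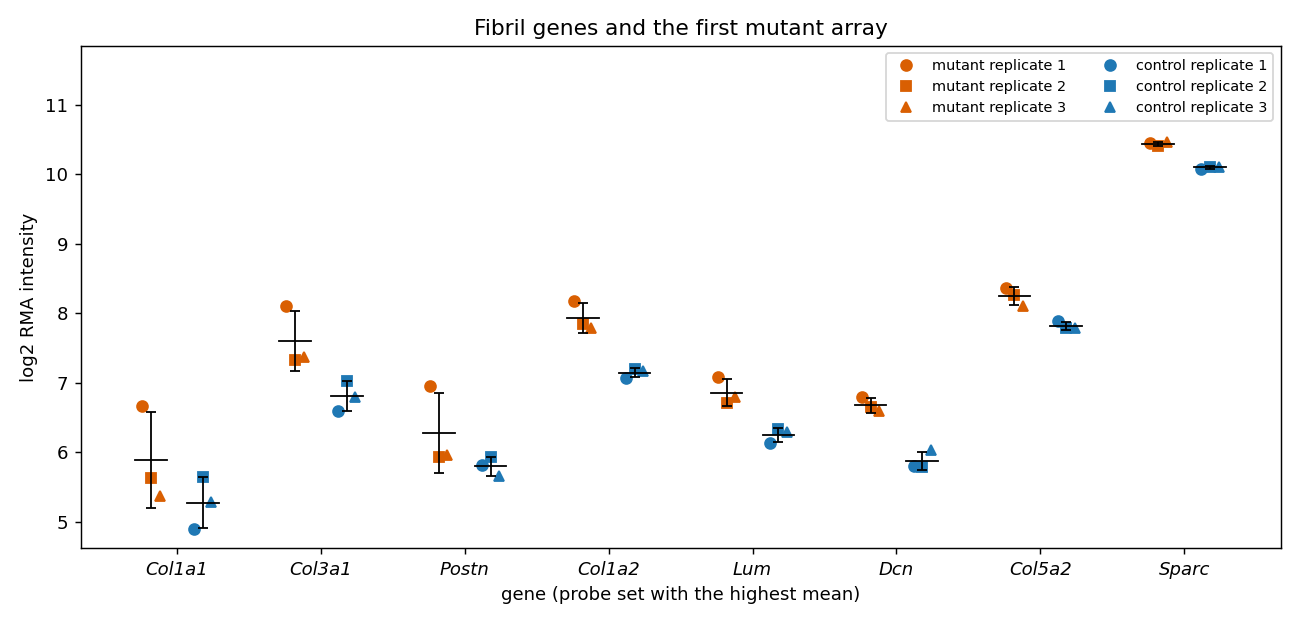
Log2 RMA intensity (vertical axis) of 8 members that bear on type I fibres, by array (mutant orange, control blue), with the group mean as a line and the SD as a bar (n = 3 each). Mutant replicate 1 lies alone above the other arrays for Col1a1, Col3a1 and Postn, whereas the 3 mutant arrays of Sparc lie between 10.41 and 10.46.

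Mutant replicate 1 was the highest mutant array for 6 of the 10 called members (60.0%) and for 19 of all 49 members (38.8%), against 34.3% of all genes. Mutant replicate 2 was the highest for 2 of the 10 called members and for 20 of all 49 (40.8%), against 32.7% of all genes. Among the fibrillar collagens mutant replicate 1 was the highest for 5 of 8, and mutant replicate 3 for 0 of 8. Mutant replicate 1 was the highest for 1 of 7 cartilage and vitreous collagens and 0 of 4 transmembrane collagens. The summed intensity of the fibrillar collagens was 1282, 1048 and 964 on the mutant arrays and 737, 811 and 755 on the control arrays, so that every mutant array lay above every control array. Without mutant replicate 1, 5 of the 10 members remained called, namely Col14a1, Col25a1, Col17a1, Dcn and Col1a2. The same 5 remained without control replicate 1. Pcolce2, which aids procollagen processing, was likewise highest on mutant replicate 1, with 3.80, 2.91 and 3.01 on the mutant arrays and 2.95, 2.89 and 2.77 on the control arrays, and was not called. Col1a1, Postn and Pcolce2 were singled out after their values were seen.

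Among the 7 non-collagen members, Dcn and Lum were called higher, and the median log2 fold change was 0.38. Dcn, which encodes decorin, had 6.80, 6.65 and 6.59 on the mutant arrays and 5.81, 5.79 and 6.03 on the control arrays. The groups were far apart beside their spread. Its log2 fold change was 0.80, or 1.75-fold (SE 0.09, limma adjusted p = 0.00767), and it was called whichever array was left out. A second, dim Dcn probe set had -0.09, and the median of both was not called (0.36).

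Lum, which encodes lumican and lies next to Dcn on chromosome 10, had 7.08, 6.71 and 6.79 on the mutant arrays and 6.13, 6.33 and 6.29 on the control arrays. The groups did not overlap. The log2 fold change was 0.60 (SE 0.11, limma adjusted p = 0.0281), just past the minimum fold, and the call was lost without mutant replicate 1 (0.50) and without control replicate 1 (0.55). Bgn, which encodes biglycan, was not called by its brightest probe set (0.38, limma adjusted p = 0.0774). It was called by another probe set, with 4.81, 5.11 and 4.86 on the mutant arrays and 4.22, 4.27 and 4.25 on the control arrays (0.68, limma adjusted p = 0.0110).

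Sparc had 10.45, 10.41 and 10.46 on the mutant arrays and 10.08, 10.11 and 10.11 on the control arrays. The gap was many times the spread within a group, yet the log2 fold change was 0.34 (SE 0.06, limma adjusted p = 0.0208), under the minimum fold. A second Sparc probe set was almost as bright, with means of 10.26 on the mutant and 10.13 on the control arrays. Its difference was 0.13 (limma adjusted p = 0.304), and the last, dimmer probe set had 0.00. Postn, which encodes the matricellular protein periostin, had 6.95, 5.93 and 5.96 on the mutant arrays and 5.82, 5.93 and 5.66 on the control arrays. Only mutant replicate 1 was apart, and Postn was not called (0.48, limma adjusted p = 0.354). Fbln1, which encodes the elastic fibre protein fibulin 1, had 0.12 (95% interval -0.03 to 0.27).

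Fbn2 was the member with the most negative difference. It encodes fibrillin 2, the microfibril protein of embryonic tissue. Its values were 8.82, 8.83 and 8.81 on the mutant arrays and 9.28, 9.28 and 9.36 on the control arrays, with no overlap and very little spread. The log2 fold change was -0.48, 1.40-fold lower in mutant RPCs (SE 0.06, limma adjusted p = 0.00855), which is short of the minimum fold. The second Fbn2 probe set had 8.43, 8.71 and 8.54 on the mutant arrays and 8.90, 8.73 and 9.05 on the control arrays, a difference of -0.33 (limma adjusted p = 0.136).

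Of the 7 cartilage and vitreous collagens, Col9a3 was called higher, and the median log2 fold change was 0.36. Col9a3 encodes a chain of type IX collagen, which coats type II fibrils. It had 4.97, 5.03 and 5.05 on the mutant arrays and 4.06, 4.42 and 4.64 on the control arrays. The mutant arrays were close together and the control arrays were spread out. The log2 fold change was 0.64 (SE 0.14, limma adjusted p = 0.0476). The call held without control replicate 3 and was lost without each of the other 5 arrays, with values from 0.49 to 0.67 there. The other probe sets of Col9a3, both dim, had 0.47 and 0.00.

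Col2a1, the chain of type II collagen, had 9.11, 9.31 and 9.20 on the mutant arrays and 8.92, 8.85 and 8.78 on the control arrays. The groups did not overlap, and the log2 fold change of 0.36 (limma adjusted p = 0.0437) was under the minimum fold. Col9a1, another type IX chain, had 10.57, 10.58 and 10.68 on the mutant arrays and 10.65, 10.55 and 10.47 on the control arrays. These overlapped fully, with a difference of 0.06 (95% interval -0.11 to 0.22), and the remaining type IX chain, Col9a2, had 0.36 (95% interval 0.08 to 0.63), and the differences between these chains were not tested. Col11a1 had 0.38, Col11a2 0.17 and Col10a1, the hypertrophic cartilage collagen, -0.16, with Col11a2 and Col10a1 below the array median on all arrays. Of 7 chondrocyte markers, Acan, Matn1, Comp and Chad lay below the array median, while Hapln1 (1.19) and Sox5 (0.92) were called higher and Sox9 had -0.03. The list's median was -0.03, with 4 of 7 differences negative. The summed intensity of the 7 was 206 to 237 on the mutant arrays and 152 to 165 on the control arrays.

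None of the 9 basement membrane collagens was called. All 9 differences were positive, with a median log2 fold change of 0.19, 4 passed an unadjusted p under 0.05 and 2 an adjusted p under 0.10. Col18a1, whose C-terminal fragment is endostatin, had 9.79, 9.89 and 9.73 on the mutant arrays and 9.44, 9.22 and 9.39 on the control arrays. The groups did not overlap, and the log2 fold change was 0.45 (SE 0.08, limma adjusted p = 0.0260). Col15a1, its relative of vascular and muscle basement membranes, had 0.41 (limma adjusted p = 0.219), and Col7a1, the collagen of anchoring fibrils, had 0.19.

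The 6 type IV genes lie as 3 head-to-head pairs. Col4a1 and Col4a2, the chains found in nearly all basement membranes, had log2 fold changes of 0.10 (95% interval -0.07 to 0.26) and 0.13 (-0.08 to 0.34). Col4a1 was at 10.02, 10.18 and 9.98 on the mutant arrays and 9.97, 9.97 and 9.95 on the control arrays. The mutant arrays all lay above the control arrays, the lowest of them by very little. A second Col4a1 probe set had 0.16 (95% interval -0.01 to 0.33). Col4a3 and Col4a4, chains of the mature kidney and eye network, had 0.61 and 0.40. Col4a4 was at 6.0, 5.88 and 5.84 on the mutant arrays and 5.36, 5.40 and 5.74 on the control arrays, with no overlap (limma adjusted p = 0.0916). Col4a3 was dim, with 3.64, 4.01 and 3.22 on the mutant arrays and 3.16, 3.04 and 2.83 on the control arrays, and 5 of these 6 values lay below their array median (limma adjusted p = 0.132). The X-linked pair Col4a5 and Col4a6 had 0.15 and 0.05. The 13 endothelial markers, from cells that also make type IV collagen, all had positive differences, with 5 called and a summed intensity of 1324 to 1430 on the mutant arrays and 797 to 1039 on the control arrays.

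Among the 14 beaded, network and fibril-associated collagens, 3 were called higher, Col14a1, Col6a3 and Col8a1, while the class median was 0.07. Col14a1 encodes type XIV collagen, which sits on the surface of fibrils. It had 6.07, 5.96 and 5.58 on the mutant arrays and 4.08, 4.61 and 4.44 on the control arrays. The lowest mutant array lay far above the highest control array. At 1.49 on the log2 scale, or 2.81-fold, this was the largest difference among the members (SE 0.17, limma adjusted p = 0.00810), and it was called under every alternative tried. A second probe set of Col14a1 was called too, with 5.12, 4.97 and 4.56 on the mutant arrays and 3.84, 3.62 and 4.0 on the control arrays (1.07, limma adjusted p = 0.0160), and the last, below the array median, had 0.10.

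Col6a3 encodes the long α3 chain of type VI collagen, which makes beaded filaments together with the chains of Col6a1 and Col6a2. It had 5.50, 5.57 and 4.78 on the mutant arrays and 4.34, 4.47 and 4.02 on the control arrays. The groups did not overlap, and replicate 3 was the lowest of each. The log2 fold change was 1.01 (SE 0.22, limma adjusted p = 0.0478), with a 95% interval from 0.49 to 1.53. The call was lost without mutant replicate 1 (0.90), mutant replicate 2 (0.87), control replicate 1 (1.04) or control replicate 3 (0.88). Col6a1 had 0.05 (95% interval -0.14 to 0.24) and Col6a2 had 0.08 (-0.07 to 0.23). Both intervals ended below that of Col6a3. A second, slightly dimmer Col6a2 probe set had 0.32, with a 95% interval from 0.09 to 0.54 that overlaps that of Col6a3. The difference between the genes was not tested. Col6a4 and Col6a5 lay below the array median on all arrays.

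Col8a1, whose chain forms the hexagonal lattice of corneal and vascular basement membranes, had 8.73, 8.72 and 8.64 on the mutant arrays and 8.0, 7.62 and 8.34 on the control arrays. The mutant arrays were nearly equal, and the control arrays spread over a wider range. Its log2 fold change was 0.71 (SE 0.17, limma adjusted p = 0.0598). The call was kept without control replicate 3 (0.89) and lost without each of the other 5 arrays, with 0.53 without control replicate 2. A second probe set was called, with 8.02, 8.15 and 7.99 on the mutant arrays and 7.30, 7.27 and 7.62 on the control arrays (0.66, limma adjusted p = 0.0199), and the last, at 0.67, was not. Its partner chain gene Col8a2 had 0.27 (95% interval -0.04 to 0.59). The 10 other genes of the class lay between -0.15 for Col6a4 and 0.10 for Col26a1.

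The transmembrane collagens were few, and 2 of 4 were called higher. Col25a1, a neuronal collagen, had 6.44, 6.44 and 6.49 on the mutant arrays and 5.73, 5.49 and 5.61 on the control arrays. The groups were far apart with little spread, and the log2 fold change was 0.84, or 1.80-fold (SE 0.08, limma adjusted p = 0.00389). It was called whichever array was left out, but a second, dimmer probe set had -0.01 and the median of both was not called (0.42). Col17a1, the hemidesmosome collagen of basal epithelial cells, had 6.14, 6.37 and 5.97 on the mutant arrays and 5.41, 5.10 and 5.47 on the control arrays. These did not overlap, and the log2 fold change was 0.83 (SE 0.13, limma adjusted p = 0.0199). Of 9 surface ectoderm markers, among them the keratin genes Krt5 and Krt14, 7 were called higher, with a summed intensity of 2959 to 3287 on the mutant arrays and 2031 to 2092 on the control arrays.

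Col13a1, the collagen of muscle and neuromuscular junctions, had 0.15 and lay below the array median. Col23a1 had 5.23, 5.23 and 5.27 on the mutant arrays and 5.51, 5.59 and 5.46 on the control arrays. It was lower on each mutant array, with a log2 fold change of -0.28 (SE 0.06, limma adjusted p = 0.0496), under the minimum fold. Its other probe sets had -0.28 and -0.26, so that all 3 gave nearly the same value.

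**Figure D4:**
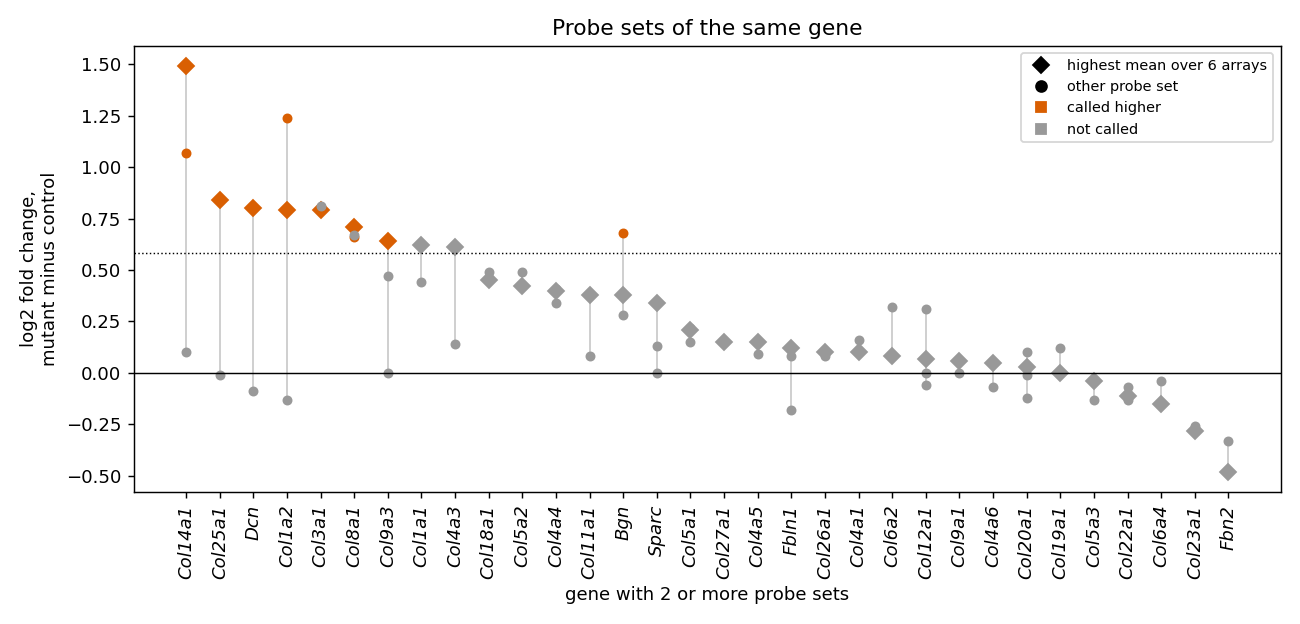
Log2 fold change (mutant minus control, vertical axis) of each probe set of the 32 members with 2 or more, with the probe set of the highest mean as a diamond, the others as points and the 1.5-fold limit dotted. The probe sets of Col8a1 and Col23a1 lie close together, while Col25a1, Dcn, Col1a2 and Col9a3 each have a probe set at or below 0.00.

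Genes that act on collagen were read in the same way. None of 17 genes for collagen folding and modification was called, among them Serpinh1, the collagen chaperone. An unadjusted p under 0.05 was passed by 5 of them, 1 of which, Colgalt2, was lower (-0.26), beside 24.4% of all genes. Their median log2 fold change was 0.07. None of 6 collagen receptor genes was called or passed an unadjusted p under 0.05, with a median of 0.04. Of 11 proteases and inhibitors none was called, 4 passed an unadjusted p under 0.05 and the median was 0.16.

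Of the 9 measured genes for procollagen processing and cross-linking, Loxl1 was called higher, and the median was 0.35. Loxl1 encodes a lysyl oxidase that cross-links elastin and collagen. It had 7.61, 7.45 and 7.69 on the mutant arrays and 6.65, 6.56 and 6.53 on the control arrays. The groups were far apart, with a log2 fold change of 1.01 (limma adjusted p = 0.00315). Pcolce, which speeds the cleavage of procollagen, had 7.26, 7.15 and 7.10 on the mutant arrays and 6.62, 6.52 and 6.78 on the control arrays (0.53, limma adjusted p = 0.0203), under the minimum fold.

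Among 23 other fibre and fibril genes, 4 were called higher and 1 lower, and the median was 0.01. The 4 were the thrombospondin gene Thbs1 (1.21), the fibulin genes Efemp1 (0.94) and Fbln5 (0.74) and the fibril proteoglycan gene Fmod (0.76). Fmod had 5.76, 5.11 and 4.99 on the mutant arrays and 4.63, 4.34 and 4.61 on the control arrays, with mutant replicate 1 apart (limma adjusted p = 0.0802). Its call held without mutant replicate 3 and was lost without each of the other 5 arrays, with 0.53 without mutant replicate 1. The single gene called lower was Ltbp1, which encodes a protein that binds latent TGF-β to microfibrils. It had 6.38, 6.22 and 6.27 on the mutant arrays and 7.38, 7.46 and 7.63 on the control arrays, a log2 fold change of -1.20 (limma adjusted p = 0.00216). By the median of the gene's probe sets, Ltbp1 (-0.16), Loxl1 (0.49), Fbln5 (0.30) and Fmod (0.16) were not called.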

How the data were processed

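The authors summarised the probe sets of Affymetrix mouse arrays by RMA, a method that includes background correction and scaling of the arrays to each other, and deposited them as linear intensity values. The methods name RACE, and the submitters' processing notes name Affymetrix Expression Console, in no stated order. Log2 of the deposited intensity was taken, 64 control probe sets were left out, and the groups were compared with limma 3.58.1 in R 4.3.3 over 45037 probe sets. The thresholds are those of the methods (1.5-fold, p of 0.05 and adjusted p of 0.10). Symbols came from the platform annotation, in which 34945 probe sets had 1 symbol, 932 several and 9160 none, and a probe set with several named no gene. All called members were named, and in each class the brightest pair and the largest rise and fall, members whose probe sets disagreed, the type IV pairs and the called related genes. The members, classes and lists were chosen with earlier results of these data known. Positions and promoters are RefSeq's for GRCm38.p6. The fit was tested on simulated data. Alternatives left out each array, added the replicate number as a block, dropped or changed the moderation, weighted arrays, changed the filter, scaling, offset and thresholds, and chose probe sets otherwise. Arrays have no read depth, and precision is limited by having 3 of them per group.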

Additional observations from a re-analysis of the deposited data

How the results depend on the processing

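The 10 members called higher became 5 to 8 when 1 array was left out, 3 without moderation of the variance (Col14a1, Dcn and Col25a1), and 16 with no minimum fold, which also called 2 lower. Col14a1 was called under all 18 alternatives, Col1a2, Dcn, Col25a1 and Col17a1 under 17, Lum under 14, Col6a3 under 13, Col8a1 under 11, Col9a3 under 10 and Col3a1 under 7. The labels state no pairing of the replicate numbers. Deviations of same-numbered arrays correlated at -0.01, -0.00 and -0.01, which cannot show whether those pools were handled together. The fit with a replicate block gave 10 members, of which 9 were shared, with Col3a1 lost and Col4a3 gained. Over all probe sets, 752 higher and 443 lower became 282 and 178 without moderation, 343 and 174 with an offset of 16 before log2, and 2268 and 2049 with no minimum fold. Genes called in either direction, 582 at first, became 247, 281 and 2250 under the same settings. The sign changed for Col4a6 and Col5a3, with Col4a6 at -0.01 without mutant replicate 2 and by the median of its probe sets, and Col5a3 at 0.01 without control replicate 2. With 1 array left out, Col4a6 lay between -0.01 and 0.09 and Col5a3 between -0.11 and 0.01. The causes were not tested. With 3 arrays in a group, calls near the threshold rest on single arrays.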
